A study of Mus musculus with 10 samples.

Results

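p53, encoded by Trp53, is a transcription factor that holds the cell cycle, slows growth or starts cell death after DNA damage and other stress. Trp53, the genes of its partners Mdm2 and Mdm4, and 7 genes that p53 is known to switch on (Ccng1, Zmat3, Sesn2, Trp53inp1, Phlda3, Eda2r and Bbc3) were followed through 10 RNA-seq libraries of sorted mouse tumour cells. The 10 genes were taken by name from the 46517 genes of the count tables, and 10 of 10 were among the 13986 genes that passed the filter on low counts.

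The libraries came from malignant peripheral nerve sheath tumours (MPNST), sarcomas of the Schwann cell lineage, that were grown as allografts in mice. Models A to E each gave 1 library of GFP+ tumour cells, which in the series' terms express the CGD transgene, and 1 library of GFP- tumour cells, which do not. All 10 libraries share the remaining handling: collagenase dissociation of the fresh tumour, then flow cytometry gates that took out wildtype and dead cells. The labels do not spell out CGD. The sources used here do not give the genotype of the tumours (Trp53 included), the strain and age of the hosts, the promoter behind the transgene, or whether a model is 1 tumour or several pooled. Nothing in the labels separates biological from technical spread between the 5 pairs. The p-values for GFP+ against GFP- cells therefore measure the spread between these samples. Tests between models have no repeat of a model within a population. Their p-values rest on the spread left between the populations of a model once the mean population difference is taken out. They do not rest on repeat tumours of a model.

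Mdm2 is a ubiquitin ligase that binds p53 and sends it for degradation, and its gene is itself switched on by p53, which closes a feedback loop. Mdm4 is a relative of Mdm2 that binds and blocks p53. p53 is governed largely at the protein level, so the RNA of its target genes is the usual reading of its activity, while the RNA of Trp53 is not. Many tumours of peripheral nerve sheath carry lesions of Cdkn2a or of p53 itself. A gene count over exons does not show whether a transcript encodes a working protein.

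The target genes are known to be reached through a DNA element made of 2 decamers, the p53 consensus, and matches to it near the gene starts are shown because 3 of the 10 genes hold one. RefSeq promoter windows (build GRCm38.p6, 250 bases before to 50 bases after the start) were at hand for 8 of the 10 genes, all but Zmat3 and Trp53inp1. They were searched on both strands for 2 adjoining decamers with the C and G of each decamer's core kept and at most 3 mismatches, a limit chosen after the windows had been scanned. Capitals mark the matched 20 bases, read along the strand of the gene.
Ccng1: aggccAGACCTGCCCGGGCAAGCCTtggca
Trp53: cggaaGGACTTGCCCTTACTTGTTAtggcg
Bbc3: cccgaCTGCAAGCCCCGACTTGTCCccagc
Cdkn1a: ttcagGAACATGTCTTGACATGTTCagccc

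The Ccng1 match (chr11:40755462-40755481, minus strand) had 1 mismatch and began 195 bases before the start. The Trp53 match (chr11:69580284-69580303, plus strand) had 3 mismatches and began 75 bases before the start. The Bbc3 match (chr7:16309486-16309505, plus strand) had 3 mismatches and lay in 1 of the gene's 3 windows. It began 97 bases before the transcript start of that window, inside the span annotated for the gene. Cdkn1a, the classic p53 target that encodes the kinase inhibitor p21, is shown beside them with 1 mismatch at chr17:29090928-29090947, plus strand. Another window of Cdkn1a had 7 mismatches at best and held no match. None of the 4 matches overlapped an annotated exon of its own gene. Of all 32851 windows, 1.38% held a match with at most 3 mismatches and 0.067% one with at most 1. A match is a description of letters, and known p53 elements of Mdm2 lie in an intron, outside these windows.

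Reads in genes numbered 15978673 to 22082207 per library, and levels are given as CPM, counts scaled to 1000000 reads in genes. Sox10, the transcription factor that defines the Schwann lineage, measured 0.11, 17.1, 52.6, 112 and 0.43 CPM in GFP+ and 0.051, 1.63, 7.65, 3.69 and 0 CPM in GFP- cells of models A to E. This marker of the Schwann lineage was thus near 0 in both populations of models A and E. It was higher in GFP+ cells of 5 of 5 pairs (log2 difference 3.61, SE 0.40; edgeR's quasi-likelihood test, Benjamini-Hochberg adjusted p = 0.18), which did not pass. Markers of immune, endothelial and erythroid cells were low. Immune genes summed to 7.21 to 18.4 CPM, mostly Cd68, with 5 of 7 under 1 CPM in every library. Endothelial genes summed to at most 3.32 CPM, and 3 of 5 erythroid genes had 0 reads throughout. Pericyte markers summed to 140.3 to 390.1 CPM in GFP+ and 141 to 887 CPM in GFP- cells, with 4 of 4 genes lower in GFP+ cells (median log2 difference -0.71). Fibroblast markers summed to 11400 to 17470 CPM in GFP+ and 12610 to 23210 CPM in GFP- cells, with 4 of 5 genes lower in GFP+ cells (median -0.19). None of these 9 genes passed the adjusted test. In bulk RNA, fewer cells that express a gene and less RNA per cell cannot be told apart.

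The comparison of GFP+ with GFP- cells asked whether transgene-expressing cells differ from the other cells of the same tumour model in p53 output. Sesn2 had the smallest p of the 10 genes and was higher in GFP+ cells of 5 of 5 pairs, Eda2r was higher mainly in pairs A and B, and the other 8 genes had log2 differences between -0.20 and 0.17. In edgeR's quasi-likelihood test with the tumour model as a block, 0 of 10 genes passed a Benjamini-Hochberg adjusted p of 0.05. Over all 13986 tested genes 0 passed as well, 0% of them, against 195 with DESeq2 and 0 with limma voom. An unadjusted p under 0.05 was reached by 1257 genes, 8.99% of those tested, and by 1 of the 10, Sesn2. The median log2 difference of the 10 genes was 0.0049, beside -0.0028 over all tested genes.

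**Figure D1:**
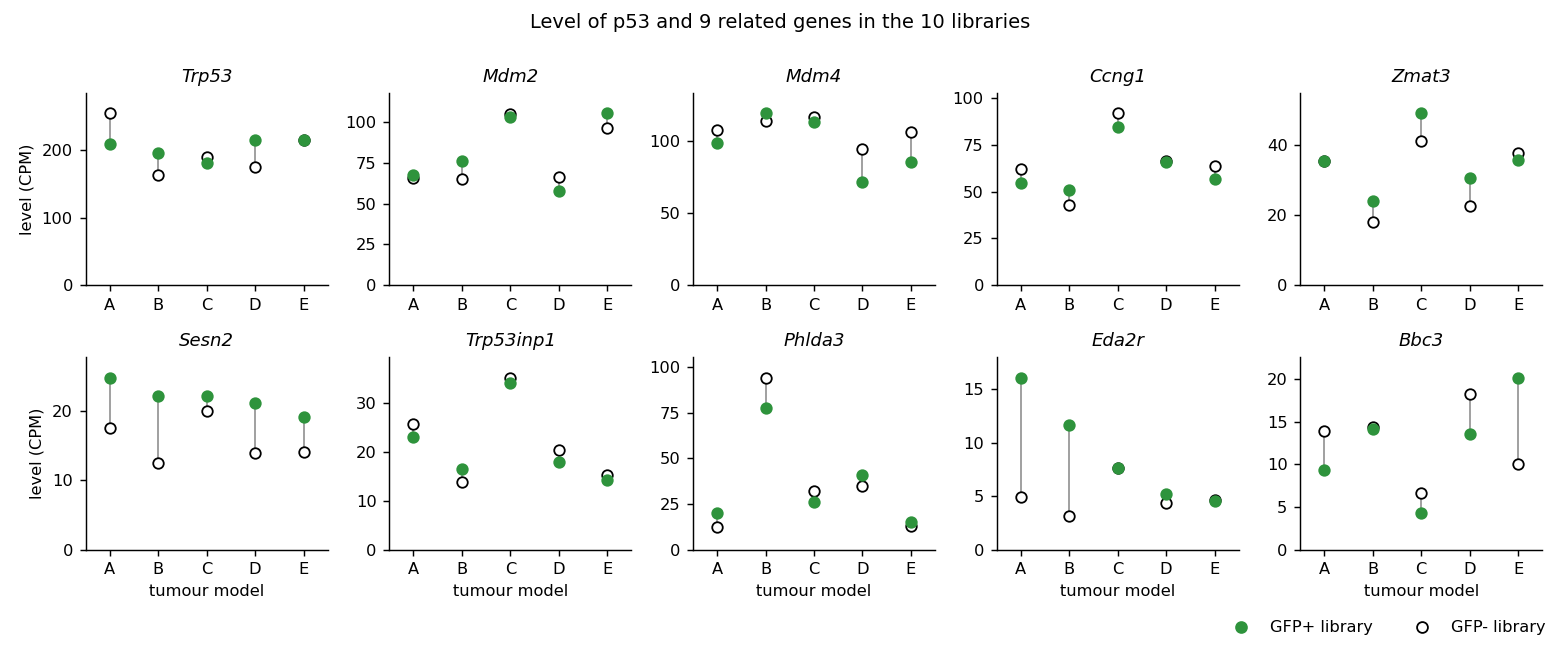
Level of each of the 10 genes in CPM (vertical axis, from 0) by tumour model (horizontal axis), with filled green points for GFP+ and open points for GFP- libraries, 1 library each, joined within a model. Sesn2 has the green point on top in 5 of 5 models, Phlda3 stands highest in model B, and the Trp53 points all lie between 163 and 254 CPM.

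Trp53 (chr11:69580359-69591873, plus strand) was abundant and even. Its level in GFP+ cells was 209, 195, 180.1, 215 and 215 CPM in models A to E (203 ± 14.9, SD, n = 5). In GFP- cells it was 254, 163, 189.6, 175 and 215 CPM (199.6 ± 36.3, SD, n = 5). The 2 populations overlapped, pair A ran lower and pairs B and D higher in GFP+ cells, and the library with most Trp53 RNA was GFP- of model A. The log2 difference was 0.0055 (SE 0.099), with a 95% interval of 0.85-fold to 1.18-fold. Per kilobase of exon, Trp53 was the most abundant of the 10 genes at 49.7 CPM, followed by Phlda3 at 23.4, Ccng1 at 18.2 and Mdm2 at 15.9, while Eda2r was lowest at 1.18. Trp53 and Mdm4 each have an annotated processed pseudogene (on chromosomes 17 and X), and reads that fit both copies are not in the counts, so both levels are uncertain.

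Mdm2 (chr10:117688875-117710758, minus strand) differed between tumour models, with little between the sorted populations. GFP+ libraries of models A to E stood at 67.8, 76.1, 103, 57.9 and 105 CPM, and their GFP- partners at 65.6, 65.2, 105, 66.1 and 96.6 CPM. The 4 libraries of models C and E, at 96.6 to 105 CPM, lay above the 6 libraries of A, B and D, at 57.9 to 76.1 CPM, while the ranges of C and E overlapped. The GFP+ minus GFP- log2 difference was 0.0042 (SE 0.081; 95% interval 0.88-fold to 1.14-fold). The difference between models passed edgeR's quasi-likelihood test (Benjamini-Hochberg adjusted p = 0.0053).

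Mdm4 (chr1:132959484-133030561, minus strand) averaged 97.7 ± 19.6 CPM over the GFP+ libraries and 108 ± 8.56 CPM over the GFP- libraries (SD, n = 5). The pair differences on the log2 scale were -0.15, -0.00043, -0.071, -0.46 and -0.30 for models A to E. After TMM scaling 5 of 5 pairs therefore pointed down, but by plain CPM pair B was 119 against 114 and pointed up. The fitted log2 difference was -0.20 (SE 0.087; edgeR's quasi-likelihood test, unadjusted p = 0.058, Benjamini-Hochberg adjusted p = 0.57). Between models, Mdm4 had an adjusted p of 0.069 in the same test.

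Ccng1 and Zmat3, targets that act on the cell cycle and on RNA, differed between tumour models. Ccng1 (chr11:40748552-40755311, minus strand) encodes cyclin G1, which recruits a phosphatase to Mdm2. It measured 54.7, 50.7, 84.5, 65.8 and 56.9 CPM in GFP+ and 62.0, 43.0, 91.9, 66.5 and 63.9 CPM in GFP- cells of models A to E. Both libraries of model C lay above the other 8 and both of model B below them. Zmat3 (chr3:32334792-32366014, minus strand) encodes a zinc finger protein that binds RNA and affects splicing. It measured 35.5, 23.9, 49.0, 30.5 and 35.6 CPM in GFP+ and 35.3, 18.1, 41.0, 22.7 and 37.6 CPM in GFP- cells. Model C again lay above the other 8 libraries, and the ranges of D and B, the lowest models, overlapped.

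Neither gene passed the test between populations. The log2 difference was -0.082 (SE 0.079) for Ccng1, lower in GFP+ cells in 4 of 5 pairs, and 0.17 (SE 0.098) for Zmat3, with pairs B, C and D up at 0.33, 0.23 and 0.37 and pairs A and E at -0.022 and -0.066. Between models, both passed edgeR's quasi-likelihood test, with Benjamini-Hochberg adjusted p = 0.0064 for Ccng1 and 0.0056 for Zmat3. Without model C the adjusted p of Ccng1 was 0.093.

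Sesn2 (chr4:132492032-132510501, minus strand) encodes sestrin 2, which restrains the growth kinase complex mTORC1 when amino acids are short and is induced by p53 and by the stress factor ATF4. GFP+ libraries of models A to E held 24.8, 22.2, 22.3, 21.2 and 19.2 CPM, and GFP- libraries 17.6, 12.5, 20.03, 14.0 and 14.1 CPM. Every GFP+ library exceeded its own partner, the GFP- library of model C came above the GFP+ library of model E, and 4 of the GFP- libraries lay below all GFP+ libraries. The fitted difference was 0.47 on the log2 scale (SE 0.11), 1.39-fold, with a 95% interval of 1.15-fold to 1.67-fold. Its unadjusted p in edgeR's quasi-likelihood test was 0.0038 and its Benjamini-Hochberg adjusted p 0.36, so it did not pass. Across 13 alternative fits the log2 difference ran from 0.40 to 0.56 and the adjusted p from 0.079 to 1.0. Sesn2 and Mdm4 were the 2 of the 10 genes with the same direction in 5 of 5 pairs, a pattern shown by 9.79% of tested genes.

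Other genes had values higher in GFP+ cells beside Sesn2, without passing the test. All 10 cell division genes had positive log2 differences (median 1.01; 8 of 10 in pair A and 10 of 10 in each other pair), and Prc1, a spindle midzone protein, and Aurkb, a mitotic kinase, stood at 1.15 and 1.18. Their summed level was 459 to 774 CPM in GFP+ and 196 to 443 CPM in GFP- cells. All 10 ATF4 targets had positive fitted differences (median 0.22), although 4 of 10 were higher in pair A, where their median was -0.22 and Sesn2 stood at 0.46. The largest were Chac1, a glutathione-degrading enzyme, at 0.55, and Trib3, a pseudokinase, at 0.47, with summed levels that overlapped (290.4 to 693 against 263 to 713 CPM). None of these genes passed the adjusted test, and 10 of the cell division genes and 1 ATF4 target had an unadjusted p under 0.05. The marker values of Sox10, pericytes and fibroblasts given above differed between the populations too. The part of any of these in the Sesn2 difference was not tested.

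Trp53inp1 (chr4:11156431-11174379, plus strand) encodes a stress protein of the nucleus and autophagosomes that promotes p53 phosphorylation. Its GFP+ libraries measured 23.0, 16.4, 33.9, 17.9 and 14.2 CPM and its GFP- libraries 25.7, 13.8, 35.1, 20.3 and 15.2 CPM. Both model C libraries lay above the other 8, then came model A, D and, with overlapping ranges, B and E. The GFP+ minus GFP- log2 difference was -0.081 (SE 0.097). The adjusted p between models was 0.0028 in edgeR's quasi-likelihood test, and 0.057 without model C.

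**Figure D2:**
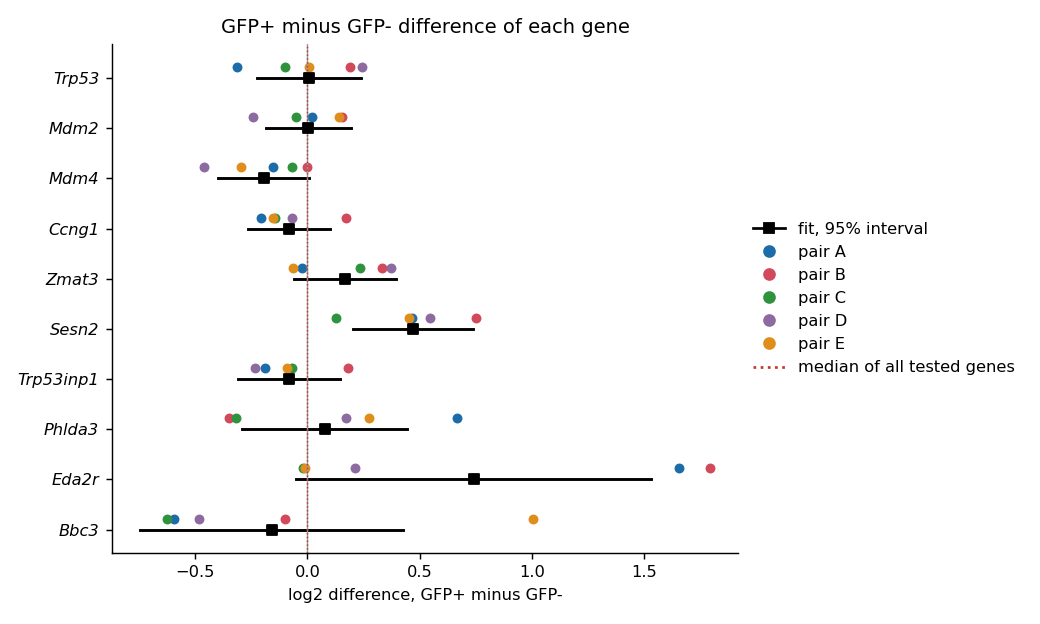
Log2 difference GFP+ minus GFP- (horizontal axis) of each gene, with the fitted value as a black square, its 95% interval as a bar and the 5 pair differences as coloured points above it. The Sesn2 interval, from 0.21 to 0.74, is the one of the 10 that does not reach 0, and the Eda2r points split into pairs A and B at 1.65 and 1.79 and pairs C to E between -0.022 and 0.21.

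Phlda3, Eda2r and Bbc3 belong to survival and death signalling, and they varied more between libraries than the other 7 genes: the ratio of the highest to the lowest library was 4.64 to 7.72, against 1.56 to 2.71. Phlda3 (chr1:135766119-135769136, plus strand) encodes a lipid-binding protein that competes with the survival kinase Akt for the membrane. Its level was 19.8, 77.4, 26.0, 40.6 and 15.3 CPM in GFP+ and 12.2, 94.1, 32.0, 34.8 and 12.8 CPM in GFP- cells. Model B stood above all other libraries, D and C followed with separate ranges, and A and E overlapped at the bottom. The pairs pointed both ways (0.67, -0.35, -0.32, 0.17 and 0.27 for A to E), with a fitted log2 difference of 0.077 (SE 0.16), while the test between models gave the smallest adjusted p of the 10 genes, 0.0013, in edgeR's quasi-likelihood test.

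Eda2r (chrX:97333840-97377216, minus strand) encodes a receptor of the TNF receptor family that binds ectodysplasin A2. Its GFP+ libraries measured 16.1, 11.6, 7.60, 5.21 and 4.54 CPM, and its GFP- libraries 4.93, 3.12, 7.60, 4.32 and 4.61 CPM. Each level rests on 69 to 289 reads. The pair differences were 1.65 in model A and 1.79 in model B on the log2 scale, and -0.022, 0.21 and -0.0095 in models C, D and E. The fitted log2 difference of 0.74 (SE 0.34) had a 95% interval of 0.97-fold to 2.89-fold, an unadjusted p of 0.063 and an adjusted p of 0.58 in edgeR's quasi-likelihood test. It was 0.49 without pair A and 0.47 without pair B. Whether the pairs differ in this response cannot be tested with 1 library per population and model.

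Bbc3 (chr7:16308393-16318205, plus strand) encodes PUMA, a BH3-only protein that triggers mitochondrial apoptosis. It measured 9.34, 14.1, 4.35, 13.5 and 20.2 CPM in GFP+ and 13.9, 14.4, 6.66, 18.3 and 10.1 CPM in GFP- cells. GFP+ cells had less in models A to D, with pair differences of -0.59, -0.10, -0.63 and -0.48 on the log2 scale, and more in model E, at 1.01. The fit gave -0.16 (SE 0.25), or -0.47 without pair E, where the unadjusted p was 0.018 and the adjusted p 0.59 in edgeR's quasi-likelihood test. Both libraries of model C lay below the other 8, opposite to Ccng1, Zmat3 and Trp53inp1, whose model C libraries lay above. The adjusted p between models was 0.062 in edgeR's quasi-likelihood test, 0.010 when model E was left out and 0.69 when model C was left out. It was 0.0071 with DESeq2 and 0.079 with limma voom.

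Between tumour models, 5 of the 10 genes passed edgeR's quasi-likelihood test (Mdm2, Ccng1, Zmat3, Trp53inp1 and Phlda3), where 54.7% of all tested genes did, so the share among the 10 is near the background. Trp53 had an adjusted p of 0.23, Sesn2 0.25 and Eda2r 0.37. Without model C, 3 of the 10 genes and 28.6% of tested genes passed. The test compares these 5 models, each represented by its 2 sorted populations. The median share of the variance of log2 CPM over the 10 genes was 83.4% for the model. Taken separately, the median share for the population was 1.63%. Over all tested genes these medians were 82.4% and 2.34%. Sesn2 had the opposite balance, 26.6% for the model and 62.0% for the population, and Eda2r had 30.1% and 30.7%. The shares are not adjusted for the number of levels, 5 models against 2 populations.

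Model C gave the most genes at an extreme: both of its libraries lay above the other 8 for 3 of the 10 genes and below them for 1, where 16.8% and 14.5% of tested genes did. Model B had 1 gene above (Phlda3) and 1 below (Ccng1), beside 8.39% and 8.74% of tested genes. Models A, D and E had 0 of the 10 in either position, beside 5.11%, 4.45% and 9.91% of tested genes above and 4.4%, 3.31% and 10.5% below. The targets did not share 1 order of models. By the mean of the 2 libraries, Phlda3 was highest in B, Bbc3 in D, Eda2r and Sesn2 in A, and Ccng1, Zmat3 and Trp53inp1 in C, though for Bbc3, Eda2r and Sesn2 the ranges of the highest model and the next overlapped. The order for Trp53, from A down through E, D and C to B, held no neighbouring pair of models whose libraries were apart.

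**Figure D3:**
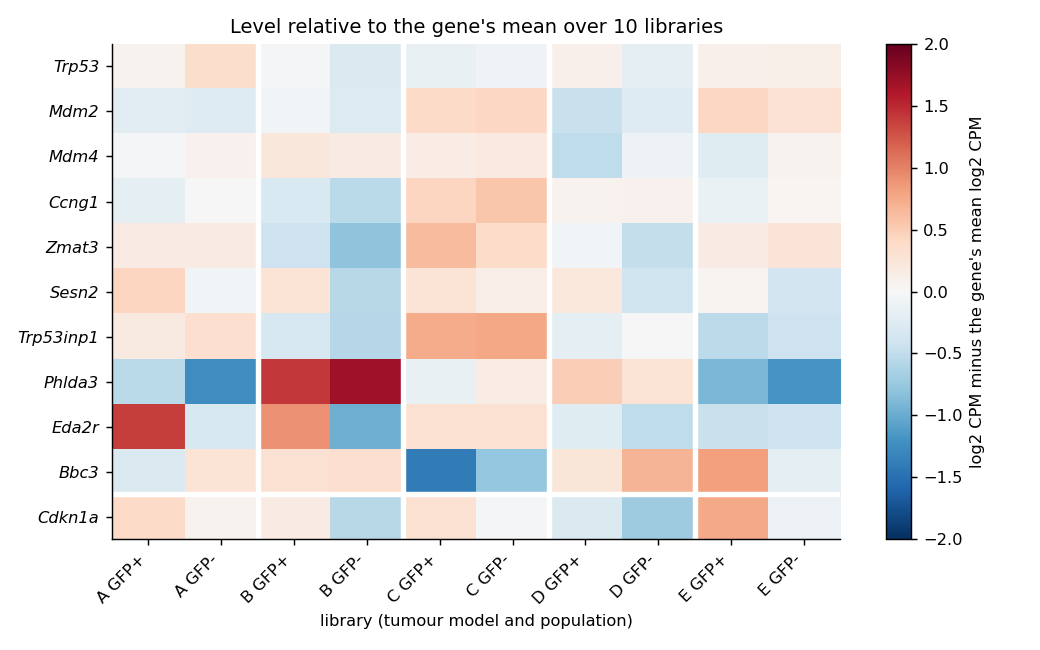
Log2 CPM of the 10 genes and Cdkn1a (rows) in the 10 libraries (columns, grouped by tumour model), each as the difference from the gene's own mean, from blue at -2 to red at 2. Ccng1, Zmat3 and Trp53inp1 are red in both model C columns where Bbc3 is blue, Phlda3 is dark red in model B, and Sesn2 and Cdkn1a are higher in the GFP+ than in the GFP- column of each model.

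Regulators upstream of p53 were followed with a list of 19 genes, all 19 tested. Of these, 10 had positive and 9 negative GFP+ minus GFP- differences (median 0.0039), 0 passed the adjusted test and 1, Chek2, had an unadjusted p under 0.05. Chek2, a kinase that phosphorylates p53 after DNA breaks, was higher in 5 of 5 pairs (log2 difference 0.36, SE 0.13). The kinase genes Chek1 (0.31, SE 0.18) and Hipk2 (0.36, SE 0.21) came next. Of the genes with negative differences, the smallest p went to Usp7 (-0.23, SE 0.11), a deubiquitinase of Mdm2 and p53, Crebbp (-0.24, SE 0.13), an acetyltransferase, and Cdkn2a (-0.13, SE 0.11). Cdkn2a encodes p16 and Arf, and Arf blocks Mdm2. Its libraries of model C measured 158 and 157 CPM, against 423 to 607 CPM in the other 8, and the models differed in edgeR's quasi-likelihood test (Benjamini-Hochberg adjusted p = 0.0019). Model C was thus the lowest for Cdkn2a and, with E, the highest for Mdm2. Model E, however, had the highest mean of Cdkn2a, 530 CPM, though its range overlapped that of model A. Both libraries of model C lay below the other 8 for 14.5% of tested genes. The p53 relatives Trp63 and Trp73 had at most 1.75 and 0.054 CPM and were not tested.

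Beyond the 7 targets among the 10 genes, 31 other p53 targets were followed, 30 of them tested. In GFP+ cells 20 had higher and 10 lower values (66.7% higher, beside 49.3% of all tested genes), with a median of 0.030, and 0 passed the adjusted test. Unadjusted p under 0.05 fell to 3 higher and 2 lower genes. The 7 cell cycle arrest genes had a median of 0.31 and 5 higher, the 10 apoptosis genes 0.069 and 7 higher, and the 13 tested genes of repair, metabolism and secreted factors 0.019 and 8 higher. The arrest genes stood highest in pair E. Their medians were 0.0084, 0.20, -0.0056, 0.097 and 0.88 in pairs A to E, with 4, 5, 3, 4 and 7 of the 7 genes higher. A list of 10 genes that tissue dissociation can induce was highest in pair E too. Its medians were -0.19, -0.10, -0.56, -0.93 and 0.57 in pairs A to E, with 10 of 10 genes higher in pair E. The part of dissociation in the arrest gene values was not tested. Between models, 18 of the 30 tested targets passed (60%), near the 54.7% of all tested genes.

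Cdkn1a had the smallest p among these arrest genes. Its GFP+ libraries measured 23.4, 20.2, 22.1, 14.7 and 30.5 CPM in models A to E, and its GFP- libraries 18.9, 12.3, 17.7, 11.0 and 16.6 CPM. GFP+ was higher in 5 of 5 pairs, though the ranges overlapped, with the GFP+ library of model D below 3 of the GFP- libraries. The log2 difference was 0.50 (SE 0.12; edgeR's quasi-likelihood test, unadjusted p = 0.0041, Benjamini-Hochberg adjusted p = 0.36). The 10 cell division genes had positive differences too, with 0 past the adjusted test, and the part of these or of the marker genes in the Cdkn1a difference was not tested. Pidd1, which encodes a scaffold for caspase 2, was higher by 0.45 (SE 0.13), at 9.05 to 13.4 CPM in GFP+ and 6.38 to 9.01 CPM in GFP- cells. The nearest libraries of both populations, GFP+ of model D and GFP- of model B, were almost equal, at 9.05 and 9.01 CPM. Pmaip1, the gene of the BH3-only protein NOXA, was higher by 0.70 (SE 0.26) in 4 of 5 pairs.

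Pmaip1 also differed between tumour models (adjusted p = 0.00051, edgeR's quasi-likelihood test). Its 2 libraries of model C held 383 and 452 CPM, against 6.45 to 93.4 CPM in the other 8. NOXA RNA was thus highest in the model where PUMA RNA (Bbc3) was lowest. Both libraries of model C lay above the other 8 for 16.8% and below them for 14.5% of tested genes. Model E had the next highest mean of Pmaip1, 62.1 CPM, and for Bbc3, at 15.1 CPM, came next after model D, the highest. Among the 10 lower genes, the smallest p went to Abhd4, a lipid hydrolase (-0.29, SE 0.070, lower in 5 of 5 pairs), Dram1, a lysosomal membrane protein of autophagy (-0.36, SE 0.15), and Dcxr, a carbonyl reductase (-0.38, SE 0.17). Gdf15, a secreted stress factor named here after its values were seen, reached at most 0.44 CPM and was not tested.

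**Figure D4:**
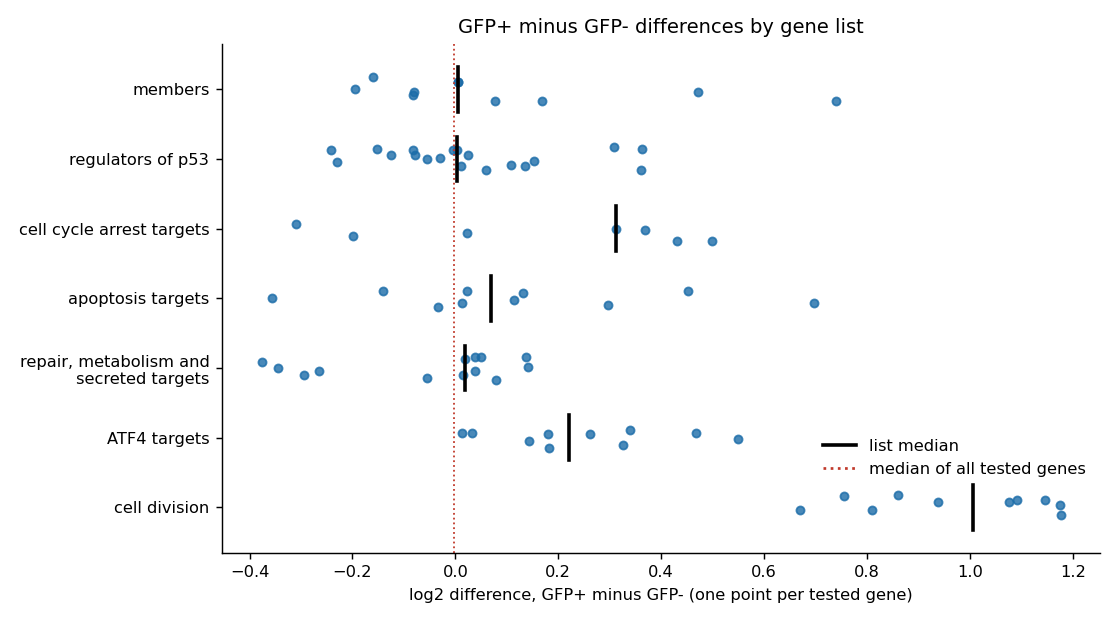
Log2 difference GFP+ minus GFP- (horizontal axis) of each tested gene of 7 lists (rows), 1 point per gene with vertical jitter, black bars at list medians and a dotted line at the median of all tested genes. The 10 members and the regulators centre near 0, the cell cycle arrest targets at 0.31 and the cell division genes at 1.01.

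The genes whose log2 CPM ran closest to that of Trp53 over the 10 libraries, among 10919 tested genes with a mean of at least 5 CPM, were Tbrg4 (Pearson r = 0.944), Atp5g2 (0.939) and Eif3c (0.932). For Mdm2 they were Tysnd1 (0.965), Uhrf1bp1l (0.957) and Sergef (0.951). The 10 libraries come from 5 models and the 6 genes are the highest of many, so these values only describe likeness.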

How the data were processed

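The authors deposited raw counts per gene, 1 table per library, made with STAR 2.4.2.8 on the mouse build mm10, per the submitters' processing notes (the annotation and library kit: not given in the sources used here). Counts for the second strand were used, since they held 96.9% to 97.1% of stranded gene reads. Summary lines for unmapped, multiply mapped, unassigned and ambiguous reads (21.3% to 24.3% of reads) were left out of library sizes. Symbols and coordinates came from GENCODE vM21, with 46005 identifiers matched and 512 not, and promoter windows from RefSeq. CPM are counts scaled to 1000000 reads in genes.

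The 10 genes, the other lists and the tests were chosen with earlier results of these data known. Counts were fitted with edgeR 4.0.16 in R 4.3.3 (TMM factors 0.973 to 1.03, filterByExpr, quasi-likelihood test, two-sided, adjusted by the Benjamini-Hochberg method over all tested genes), with model and population as terms, because the series' text states a paired comparison. The biological coefficient of variation was 0.196. A letter marks 1 tumour model, which pairs its 2 libraries, and within the 5 pairs the deviations of log2 CPM from each population's mean had correlations of 0.628 to 0.867. Standard errors were taken from the F statistic, and pair differences from log2 CPM (prior count 2). A pair of models was called apart in level for a gene where their library ranges did not overlap. The fit was tested on simulated data.

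Beside the 10 genes, the rule for names took Cdkn1a, the 3 smallest p in each direction among other targets and among regulators, Trp63 and Trp73, the 3 closest correlates of Trp53 and of Mdm2, and up to 2 examples of smallest p from other lists. Genes outside it are said to have been chosen after their values were seen. The alternatives were no block, RLE factors, library totals, 2 other filters, unstranded counts, DESeq2 1.42.0, limma 3.58.1 voom with quality weights, and leaving out each pair. The summed level of the Schwann lineage markers is not reported here.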

Additional observations from a re-analysis of the deposited data

Results flagged for a closer look

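Phlda3 in the GFP- library of model B, at 94.1 CPM, lay far from the other 4 GFP- libraries, which held 12.2 to 34.8 CPM. The gap to the nearest library was 0.724 of the whole range, above the limit of 0.71 for 5 samples. The GFP+ library of the same model was also the highest of its population, at 77.4 CPM. This was 1 of 30 groups of values examined over the 10 genes, and chance alone marks about 1 in 20.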

How the results depend on the processing

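The count of genes called between GFP+ and GFP- cells was 0 in 11 of 13 alternatives, 47 without a filter on low counts (37 higher, 10 lower) and 195 with DESeq2 (144 higher, 51 lower), and none of the 10 genes was called in any of them. Leaving out 1 pair gave 0 to 0. Between models, 7655 genes were called, 54.7% of those tested. Without the filter the count was 8224, but this was 31.9% of 25762 tested genes. With DESeq2 it was 8398 (60.0%). It was 4038 (without model C) to 7545 when 1 model was left out. Sesn2 was lowest without pair B and highest without pair C. Differences near 0 changed sign: Trp53 was -0.0075 with no replicate block, -0.011 without the filter, -0.0035 with voom and -0.053 to 0.080 when 1 pair was left out. Mdm2 was -0.012 without the filter, -0.0016 with voom and -0.045 to 0.066 when 1 pair was left out. Phlda3 was -0.10 with no replicate block, -0.038 with voom and -0.071 to 0.19 when 1 pair was left out. Dropping the block, which removes the pairing, left 0 genes called between populations, as in the main fit, where no call could be lost. Genes with an unadjusted p under 0.05 went from 1257 to 190 without the block. The unadjusted p of Sesn2 went from 0.0038 to 0.017 in edgeR's quasi-likelihood test. The adjusted p between models for Bbc3 was 0.020 without the filter, 0.0071 with DESeq2 and 0.010 (without E) to 0.69 (without C) when 1 model was left out. It was 0.0066 to 0.093 for Ccng1 and 0.0036 to 0.057 for Trp53inp1, both highest without model C. The cause of these changes was not tested. Each of the 10 genes had at least 69 reads in each library, and counting error was not separated from the spread between pairs.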

Other observations

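Jun, an immediate-early gene that tissue dissociation can induce, was chosen after its values were seen because it was high in the same libraries as Eda2r. It measured 6701 and 5895 CPM in GFP+ cells of models A and B, against 2312 and 1382 CPM in their GFP- cells. In model E it was 4805 against 2231 CPM, where Eda2r was 4.54 against 4.61 CPM, and in models C and D it was lower in GFP+ cells. Of the 10 dissociation response genes followed, 8 had negative GFP+ minus GFP- differences (median -0.26) and 0 passed the adjusted test of edgeR. By pair, 2, 4, 0, 0 and 10 of the 10 genes were higher in GFP+ cells of models A to E. Their part in the Eda2r difference was not tested.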
